A study of Mus musculus with 6 samples.

Results

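The genes described here encode the SIBLING proteins (small integrin-binding ligand, N-linked glycoproteins) and other noncollagenous proteins of bone matrix. They are Spp1, Ibsp, Dmp1, Mepe, Phex, Bglap, Bglap2, Bglap3, Sparc and Mgp, chosen by gene symbol, 10 of the 54532 genes in the deposited table, and each symbol matched 1 gene. MC3T3-E1 is an established mouse pre-osteoblast line. All samples were kept for 3 days in osteogenic medium, which holds β-glycerophosphate, ascorbic acid and dexamethasone. The control samples (3) received nothing else and the metformin samples (3) also received 0.2 mM metformin, a biguanide that lowers blood glucose. The replicates are described as biological, but no source used here says whether they were separate cultures, so p-values measure the spread between these samples. The line is a cell culture model, and there were no samples outside osteogenic medium.

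Bone matrix is mostly type I collagen, and the noncollagenous proteins bind the collagen, the cells or the mineral. SIBLING proteins are acidic phosphoproteins with an RGD site for integrins. Osteopontin (Spp1) slows crystal growth, bone sialoprotein (Ibsp) favors the first crystals, and DMP1 and MEPE are best known from osteocytes, the cells that osteoblasts become inside bone. PHEX is a membrane peptidase that cuts SIBLING peptides. Osteocalcin (Bglap and Bglap2 in the mouse) and matrix Gla protein (Mgp) carry glutamates that a vitamin K-dependent enzyme carboxylates. Matrix Gla protein inhibits calcification of soft tissue, and osteonectin (Sparc) binds collagen and calcium.

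Values are FPKM, the reads of a gene divided by its length and by a library size. The reads behind them could be recovered and totaled 18399861 to 22111790 per sample. The 3 metformin samples had Pearson correlations of 0.992 with each other across tested genes. Control replicates 2 and 3 had a correlation of 0.988, while control replicate 1 had correlations of 0.96 and 0.952 with them. The difference of control replicate 1 from the other controls had a Spearman correlation of -0.668 with transcript GC content across tested genes. What set this replicate apart was not tested. For a member or related gene named below whose call changes without control replicate 1, both results are given. The test was limma-trend, run on log2(FPKM + 1) for the 12681 genes whose FPKM averaged 0.5 or more, so a log2 fold change understates the change of a low gene. A gene was called at a Benjamini-Hochberg adjusted p-value under 0.05 over all tested genes.

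The members covered a wide range of levels. In osteogenic medium alone the order by mean FPKM was Spp1 (7703), Mgp (2917), Sparc (1567), Ibsp (814), Dmp1 (74.8), Bglap2 (14.1), Bglap (8.04), Mepe (0.813), Phex (0.493) and Bglap3, which was listed at 0. The sample ranges of Bglap2 and Bglap overlapped, as did those of Mepe and Phex, and no other neighbors in this order did. Spp1 ranked 3 to 5 among all genes of the table in every sample. Its reads were 1.29% ± 0.137 (SD, n = 3) of all reads in control samples and 0.445% ± 0.0054 (SD, n = 3) with metformin. With metformin Sparc stood above Mgp, and their ranges did not overlap in either group.

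**Figure D1:**
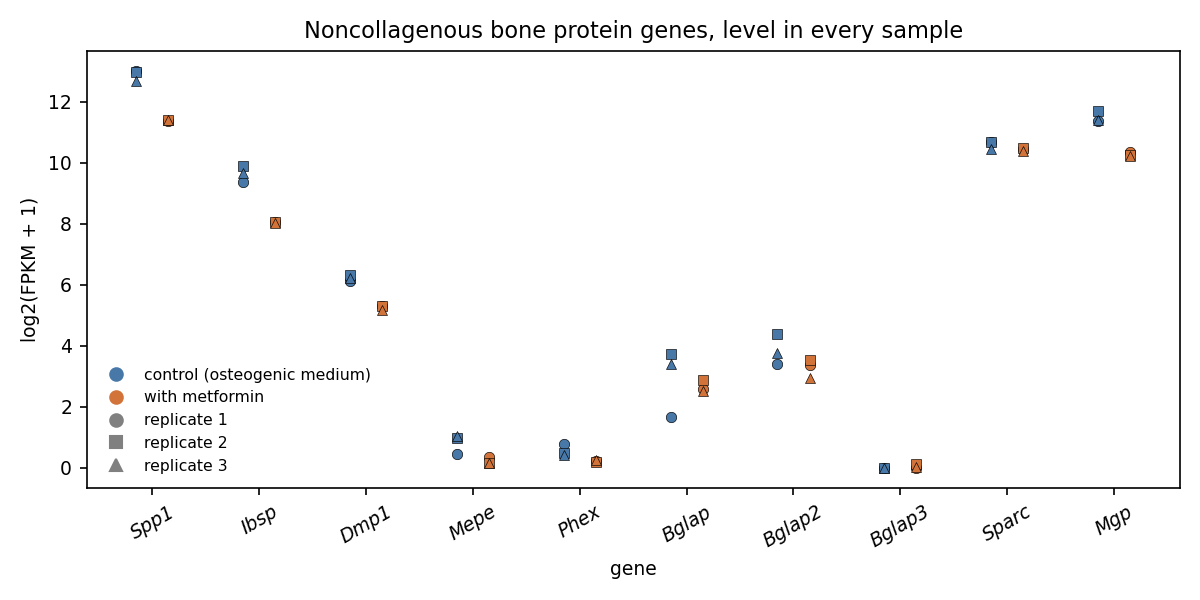
Level of the 10 genes in each of the 6 samples, as log2(FPKM + 1) on the vertical axis, with control samples in blue, metformin samples in orange and a symbol for each replicate number. For Spp1, Ibsp, Dmp1, Mepe, Phex and Mgp all 3 metformin samples lie below all 3 control samples, while Bglap, Bglap2, Bglap3 and Sparc overlap.

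Compared with osteogenic medium alone, 4 of the 7 tested members were lower with metformin and 0 were higher. Over all tested genes 9.28% were called lower (1177), 13.2% higher (1670) and 22.5% either way. A GC correction of each library turned this split to 2433 lower and 2062 higher, with the same number of members called. It was fitted to each gene's difference from its mean over all 6 samples. It therefore also removes any difference between the groups that follows GC content. The lower members were Spp1, Ibsp, Dmp1 and Mgp, and Sparc, Bglap and Bglap2 were not called. Mepe, Phex and Bglap3 were under the limit on mean FPKM and were not tested in this fit. The median log2 fold change of the 7 tested members was -0.97, where that of all tested genes was 0.005. For the same 4 genes every metformin sample lay below every control sample, which held for 20.5% of all tested genes.

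Spp1 encodes osteopontin, and the gene spans chr5:104435118-104441050 (GRCm38, plus strand). Control samples had 8357, 8188 and 6565 FPKM, and metformin samples had 2680, 2727 and 2704. The mean fell from 7703 ± 989 (SD, n = 3) to 2704 ± 23.4 (SD, n = 3), which is 35.1% of the control mean. The log2 fold change was -1.50 (standard error 0.13, adjusted p = 0.000471 by limma-trend). All metformin samples were low and close to each other, and the groups were far apart. In a bulk culture fewer cells that transcribe a gene and less RNA per cell cannot be told apart, here and for every gene below. With no filter on low values the standard error of Spp1 was 0.57 and the call was lost (adjusted p = 0.198 by limma-trend). Its adjusted p ranged from 4.2e-05 to 0.198 over the 14 alternatives, of which 13 kept the call. Gm42793, an annotated transcript of unproven status on the same strand, lies inside Spp1, shares 181 bases with it at 100% identity and could take some of its reads.

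Ibsp encodes bone sialoprotein (chr5:104299171-104311469, plus strand). Its levels were 664, 964 and 815 FPKM in control samples and 269, 266 and 260 with metformin. The log2 fold change was -1.60 (standard error 0.15, adjusted p = 0.000578), from 814 ± 150 to 265 ± 4.41 FPKM (SD, n = 3 each), or 32.6% of the control mean. The lowest control sample, replicate 1, was still above every metformin sample. By log2(FPKM + 1), 0.371% of the tested genes had a lower log2 fold change than Ibsp, and 0.449% had a lower one than Spp1. This scale understates the change of low genes, so genes of low level with larger relative drops can rank behind these 2.

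Dmp1 encodes dentin matrix protein 1 (chr5:104202613-104214102, plus strand). It had 69.5, 80.2 and 74.5 FPKM in control samples and 38.8, 38.5 and 35.3 with metformin. The log2 fold change was -0.97 (standard error 0.09, adjusted p = 0.000683), and the metformin mean was 50.2% of the control mean. Control replicate 1 did not stand apart for this gene, with a control coefficient of variation of 7.11%. The calls of Ibsp and Dmp1 held in all 14 alternatives, with log2 fold changes from -1.74 to -1.47 and from -1.02 to -0.92.

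**Figure D2:**
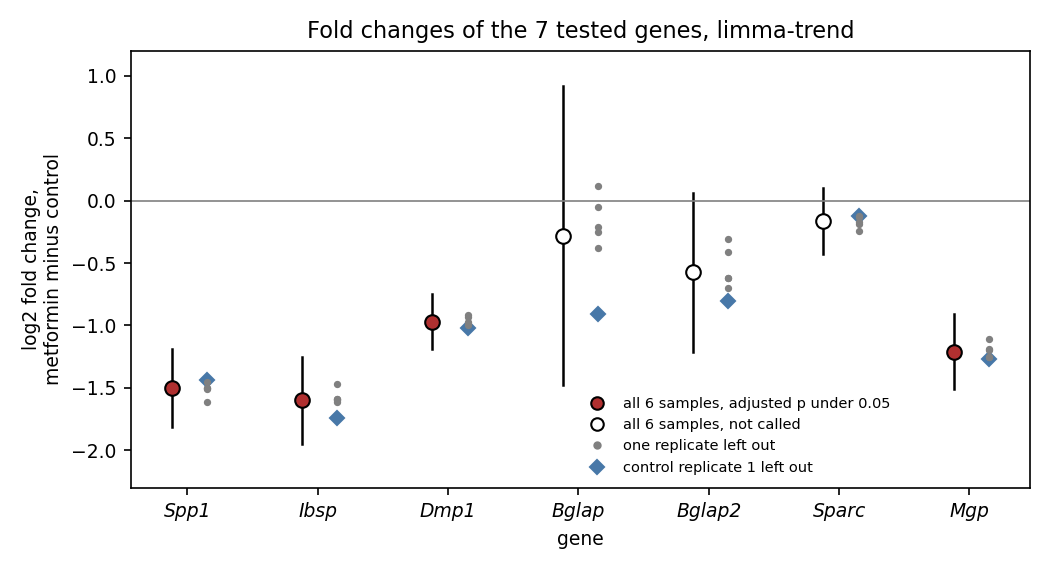
Log2 fold change of each of the 7 tested genes, metformin minus control, as circles with 95% intervals from limma-trend, red where the adjusted p-value is under 0.05. Small points show the fits that each left out 1 replicate, with control replicate 1 as a blue diamond. Spp1, Ibsp, Dmp1 and Mgp lie between -1.60 and -0.97, and the points of Bglap spread from -0.91 to 0.12.

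Mepe, the SIBLING gene whose protein gives a mineralization-inhibiting peptide, was near the limit of detection (chr5:104325329-104338611, plus strand). It had 11, 35 and 36 reads in control samples and 9, 4 and 4 with metformin, or 0.358, 0.992 and 1.09 against 0.27, 0.109 and 0.122 FPKM. Every metformin sample was below every control sample, and the distance between control replicate 1 and metformin replicate 1 was 2 reads. Phex, the peptidase of SIBLING peptides (chrX:157162075-157415312, minus strand), had 82, 54 and 44 reads in control samples and 20, 20 and 24 with metformin. These are 0.714, 0.409 and 0.356 against 0.16, 0.146 and 0.196 FPKM, and the groups did not overlap. For 20.1% of all genes with at least 30 reads in all, every metformin sample lay below every control sample. Gm15172 and other small annotated genes lie within Phex and could take some of its reads. An exact two-sided permutation test gave p = 0.1 for each gene, the smallest value that 3 against 3 samples allow. A fit of the recovered reads with voom over the 14811 genes with at least 30 reads in all, chosen after the values were seen, gave a log2 fold change of -2.20 for Mepe (95% interval -3.71 to -0.69, adjusted p = 0.0466). The same fit gave -1.51 for Phex (95% interval -2.32 to -0.70, adjusted p = 0.0186), and it called 10.2% of its genes lower. Mepe reached 30 reads in all only through its control samples, so its call in this fit adds no support for a drop. On log2(FPKM + 1) with no filter the adjusted p-values by limma-trend were 0.103 and 0.0907, and 0.0348 for Phex with at least 10 reads in every sample.

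Dmp1, Ibsp, Mepe and Spp1 lie side by side on chromosome 5, all on the plus strand, within 238.4 kb. Dspp, the SIBLING gene of dentin at the end of this row, had 0 reads in all 6 samples. In the 300 kb on either side, Sparcl1 was the one neighboring protein-coding gene that was called, and it was higher. It encodes a matrix protein related to osteonectin and rose from 8.88 ± 2.13 to 22.5 ± 0.187 FPKM (log2 fold change 1.27, standard error 0.15, adjusted p = 0.00172). Pkd2, the next protein-coding gene after Spp1, had a log2 fold change of 0.26 (adjusted p = 0.0959). The tested neighbors had log2 fold changes from -0.39 for Klhl8 to 1.27 for Sparcl1.

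**Figure D3:**
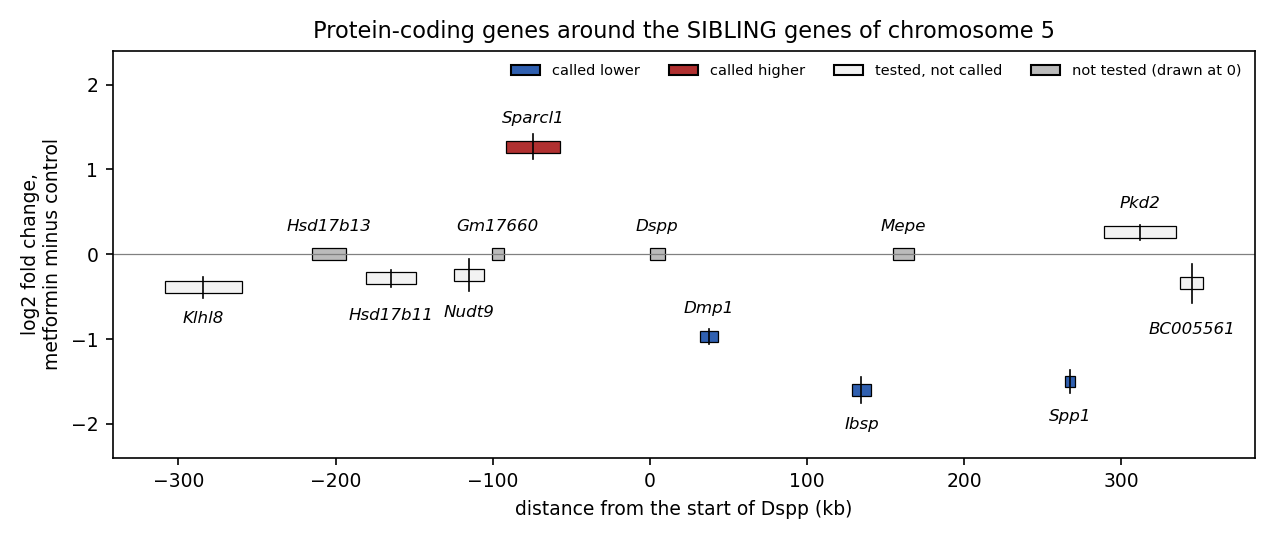
Protein-coding genes around the SIBLING genes of chromosome 5, drawn to scale along the horizontal axis as distance in kb from the start of Dspp, at the height of their log2 fold change with a bar of 1 standard error. Dmp1, Ibsp and Spp1 (blue, called lower) lie between -1.60 and -0.97, Sparcl1 (red) at 1.27, and genes that were not tested are grey at 0.

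The 170 bases before the RefSeq transcription start of these 4 genes are shown because the genes adjoin and all had lower values with metformin (GRCm38.p6, plus strand, 5′ to 3′). The windows are chr5:104202447-104202616 for Dmp1, chr5:104299117-104299286 for Ibsp, chr5:104325159-104325328 for Mepe and chr5:104434941-104435110 for Spp1. Capitals mark 4 motifs on either strand, chosen after the sequences were read: the CCAAT box (CCAAT, which reads ATTGG on the other strand), the TTTAAA box, the TATAAA box (TTTATA on the other strand) and a RUNX site (AACCACA, which reads TGTGGTT on the other strand).
Dmp1: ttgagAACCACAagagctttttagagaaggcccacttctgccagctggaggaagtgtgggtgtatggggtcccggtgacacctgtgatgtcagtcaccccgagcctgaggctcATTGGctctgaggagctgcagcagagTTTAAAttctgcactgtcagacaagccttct
Ibsp: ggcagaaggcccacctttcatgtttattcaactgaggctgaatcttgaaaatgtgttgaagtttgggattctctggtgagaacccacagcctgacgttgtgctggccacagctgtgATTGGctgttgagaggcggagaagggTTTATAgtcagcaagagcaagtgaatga
Mepe: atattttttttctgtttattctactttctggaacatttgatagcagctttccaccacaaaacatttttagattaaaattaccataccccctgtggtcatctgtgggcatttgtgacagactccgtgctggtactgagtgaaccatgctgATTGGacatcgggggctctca
Spp1: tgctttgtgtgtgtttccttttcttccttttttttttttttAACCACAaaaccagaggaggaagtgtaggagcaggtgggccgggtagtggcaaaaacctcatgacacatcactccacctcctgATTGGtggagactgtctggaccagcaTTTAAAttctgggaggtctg
Dmp1 and Spp1 have 2 RefSeq entries each, and the one shown is that nearest to the start of the gene in the deposited table. The RefSeq start of Ibsp lies 116 bases inside the gene as deposited, so its 2 marked motifs fall within that gene. For Dmp1, Mepe and Spp1 the RefSeq start shown is within 7 bases of the deposited one. All 4 windows shown held ATTGG, beginning at -57 in Dmp1, -54 in Ibsp, -21 in Mepe and -46 in Spp1 from the start. Of 32851 RefSeq promoters of mouse genes, 33.8% held CCAAT on either strand in the 250 bases before the start. Dmp1 and Spp1 also held TTTAAA, beginning at -31 and -20 and found in 12.1% of promoters, and AACCACA, beginning at -165 and -129 and found in 4.4%. Ibsp held TTTATA beginning at -28. In the full 250 bases Mepe held TTTATA from -173 to -168, which begins before the window shown and ends inside it. Spp1 held TATAAA at -211, outside its window. In all, 3 of the 4 entries matched this motif, which 12.4% of promoters held. The motifs were chosen after these sequences were read, so the shares are background and no test of enrichment. TGANTCA (an AP-1 site) and CACGTG (an E-box) had no match in the 250 bases of these 4 entries and were in 6.75% and 6.02% of promoters. The other Dmp1 entry held ATTGG at -101 and CACGTG at -249 and -44, and the other Spp1 entry matched none of these motifs. RefSeq entries were found for 8 of the 10 members, and a match of letters is a description of these windows.

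Mgp encodes matrix Gla protein (chr6:136872435-136875823, minus strand) and was the second most abundant member in control samples. It had 2665, 3344 and 2740 FPKM in control samples and 1323, 1226 and 1212 with metformin. The log2 fold change was -1.21 (standard error 0.13, adjusted p = 0.00096 by limma-trend), from 2917 ± 372 to 1254 ± 60.2 FPKM (SD, n = 3 each), which is 43% of the control mean. All metformin samples were low, and the groups were well separated. With no filter on low values its adjusted p was 0.0683 by limma-trend, and the other 13 alternatives kept the call, over a range of adjusted p from 0.000164 to 0.0683.

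Osteocalcin was low at this time. Bglap (chr3:88383501-88384464, minus strand) had 2.22, 12.3 and 9.55 FPKM in control samples and 5.06, 6.31 and 4.73 with metformin. Bglap2 (chr3:88377736-88378699, minus strand) had 9.65, 19.9 and 12.6 in control samples and 9.31, 10.5 and 6.76 with metformin. For both genes control replicate 1 was the lowest control sample, and control replicates 2 and 3 were above all metformin samples. Limma-trend gave a log2 fold change of -0.28 for Bglap (95% interval -1.48 to 0.92, adjusted p = 0.735) and -0.57 for Bglap2 (95% interval -1.21 to 0.06, adjusted p = 0.175). Without control replicate 1 both were called lower, Bglap at -0.91 (adjusted p = 0.00314) and Bglap2 at -0.80 (adjusted p = 0.0304). Without control replicate 2 Bglap was at 0.12 (adjusted p = 0.89). The adjusted p-values of Bglap ranged from 0.00314 to 0.962 over its 15 alternatives, so its call turned on control replicate 1 and its sign on control replicate 2. Those of Bglap2 ranged from 0.0304 to 0.419. With the GC correction Bglap was at -0.33 (adjusted p = 0.57 by limma-trend) and Bglap2 at -0.64 (adjusted p = 0.0598).

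The osteocalcin genes are near-identical copies, so their separate values are uncertain. The transcripts of Bglap and Bglap2 are 98.9% identical over 439 aligned bases. Of the 100-base stretches of Bglap2 51.6% occur unchanged in Bglap, and how the authors counted reads that fit both is not given in the sources used here. Summed over Bglap, Bglap2 and Bglap3, the reads were 108, 357 and 233 in control samples and 149, 199 and 120 with metformin. The sum had a log2 fold change of -0.47 (95% interval -1.31 to 0.37, adjusted p = 0.385) and was not called. Bglap3, a relative whose expression lies mostly outside bone (chr3:88368616-88372743, minus strand), had 0 reads in the control samples and in metformin replicate 1, and 6 and 1 reads in metformin replicates 2 and 3. A count of 0 allows up to 3 reads, or 0.0544 to 0.0625 FPKM in the control samples.

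Sparc, which encodes osteonectin (chr11:55394500-55423183, minus strand), was the abundant member whose groups overlapped. It had 1651, 1650 and 1399 FPKM in control samples and 1409, 1438 and 1337 with metformin. The log2 fold change was -0.16 (95% interval -0.43 to 0.10, adjusted p = 0.34 by limma-trend), and no alternative called it. The metformin mean was 89% of the control mean.

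Ratios within a sample do not depend on how libraries were scaled. Spp1 was 5.06, 4.96 and 4.69 times Sparc in control samples and 1.9, 1.9 and 2.02 times Sparc with metformin. Ibsp was 0.402, 0.584 and 0.583 times Sparc in control samples and 0.191, 0.185 and 0.195 with metformin. The ratios of Mgp and of Dmp1 to Sparc also did not overlap, with metformin means at 48.2% and 56.1% of the control means. An exact two-sided permutation test gave p = 0.1 for each of the 4 ratios, the smallest possible value. These 4 genes were the members called lower and Sparc was not called, so the ratios are no separate support. A ratio also does not remove an effect of GC content. The ratio of Spp1 to Ibsp was 9.71 ± 2.5 (SD, n = 3) in control samples and 10.2 ± 0.212 (SD, n = 3) with metformin, and the groups overlapped (exact permutation p = 1). In single samples the ratio of Spp1 to Ibsp was 12.6, 8.5 and 8.05 against 9.97, 10.2 and 10.4, so the overlap came from control replicate 1. The ratio of Spp1 to Mgp was 2.66 ± 0.413 and 2.16 ± 0.116 (SD, n = 3 each) without overlap (exact permutation p = 0.1). The ratio of Ibsp to Dmp1 was 10.8 ± 1.24 and 7.07 ± 0.259 (SD, n = 3 each) without overlap (exact permutation p = 0.1).

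**Figure D4:**
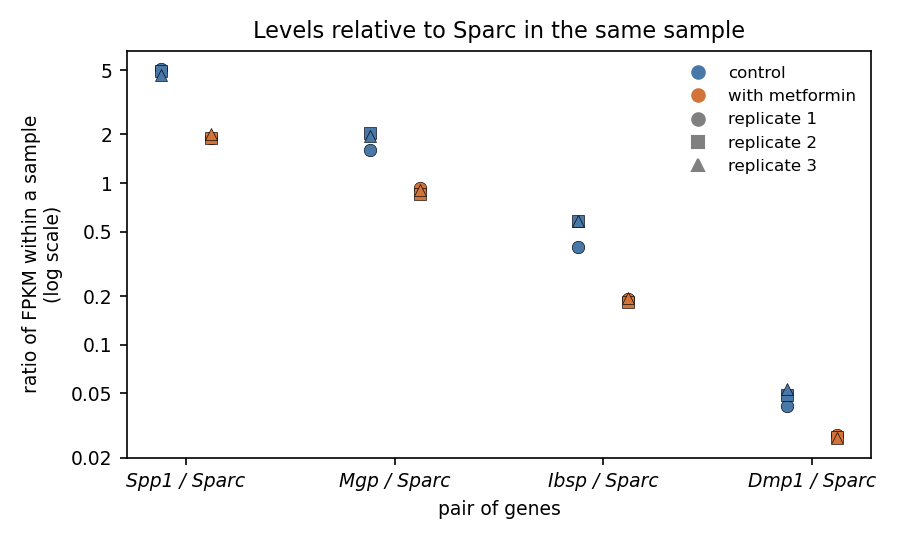
Ratio of the FPKM of Spp1, Mgp, Ibsp and Dmp1 to that of Sparc in the same sample, on a log scale, with control samples in blue, metformin samples in orange and a symbol for each replicate number. In all 4 pairs the metformin samples lie below the control samples, for Spp1 near 1.94 against 4.91.

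The primer pair that the study lists for OCN, its name for osteocalcin, is shown because it decides which member a PCR with it reads (5′ to 3′).
OCN forward: ctcccattggcgagtttg
OCN reverse: tgtagtccaggtggagcttgtg
Searched against all GENCODE M21 transcripts, both primers matched Sparc without a mismatch in 6 of its 9 transcripts, with a product of 129 bases. No transcript of another gene held either primer. Against the Bglap, Bglap2 and Bglap3 transcripts the forward primer of 18 bases had at least 7 mismatches and the reverse primer of 22 bases at least 9. The levels of Sparc and of the osteocalcin genes in these libraries are those given above, and no PCR value was analysed here.

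Related genes were counted in lists chosen by role, beside the background of 13.2% higher and 9.28% lower. Vitamin K-dependent carboxylation acts on the Gla proteins. Its carboxylase Ggcx had 18.7 ± 1.25 FPKM in control samples and 23.2 ± 0.451 with metformin (log2 fold change 0.30, adjusted p = 0.0441, called in 1 of the 6 fits that left out a replicate, the one without control replicate 1). Vkorc1 and Vkorc1l1, which recycle the vitamin, were not called, although Vkorc1l1 was at 0.22 without control replicate 1 (adjusted p = 0.0364) against -0.01 with all samples. The other Gla protein genes that were tested, Gas6 and Pros1, were not called either, with log2 fold changes of -0.39 (adjusted p = 0.0532) and 0.24 (adjusted p = 0.142). Without control replicate 1 both were called, Gas6 at -0.48 (adjusted p = 0.00305) and Pros1 at 0.28 (adjusted p = 0.0363).

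Of 6 tested genes listed as kinases of SIBLING proteins, a kinase partner and proteases, 1 was lower and 5 were not called. The lower gene was Fam20a, a partner of the secretory kinase Fam20c (log2 fold change -0.64, adjusted p = 0.0041, called in all 6 fits that left out a replicate). Fam20c itself had a log2 fold change of -0.31 (adjusted p = 0.232). Without control replicate 1 the list had 3 lower genes, Fam20c (-0.49, adjusted p = 0.00281) and the protease Furin (-0.30, adjusted p = 0.0106) beside Fam20a. With all samples Furin was at -0.16 (adjusted p = 0.422 by limma-trend). Of 4 tested genes of the SPARC family other than Sparc, Sparcl1 was higher and 3 were not called.

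Of 8 tested receptors for osteopontin and RGD sites, 4 rose, 2 fell and 2 did not pass the test. Without control replicate 2 or any 1 metformin replicate, the genes called higher were 1 in place of 4, since Itgb1, Cd44 and Itga8 lost their calls. Itgav, the alpha chain shared by several osteopontin receptors, went from 11.8 ± 3.65 to 25.9 ± 0.242 FPKM (log2 fold change 1.10, adjusted p = 0.00746). Its partner Itgb3 went from 9.87 ± 1.03 to 5.24 ± 0.493 FPKM (log2 fold change -0.80, adjusted p = 0.00261). Both calls held in all 6 fits that left out a replicate. The transcripts of these 2 chains moved in opposite directions. Itgb5, the other of the 2 genes that fell, went from 385 ± 13 to 247 ± 12.7 FPKM. Its log2 fold change was -0.64 (adjusted p = 0.00365 by limma-trend, called in all 6 fits).

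Of 11 tested osteoblast transcription factors, 4 rose, 1 fell and 6 did not pass the test. In each fit without 1 metformin replicate 2 were higher and 0 lower. Without control replicate 1, 5 were higher and 2 lower, with Sp7 (0.27, adjusted p = 0.023) and Cebpb (-0.87, adjusted p = 0.000271) added. With all samples Sp7 was at 0.36 (adjusted p = 0.0586 by limma-trend) and Cebpb at -0.14 (adjusted p = 0.888), and neither was called. Dlx5 was higher (log2 fold change 0.99, adjusted p = 0.0246, called in 3 of the 6 fits) and Dlx3 was lower (-0.82, adjusted p = 0.0214, called in 1 of the 6, the one without control replicate 1). Of 5 tested genes of phosphate and mineral control, 2 were lower and 3 were not called. The lower genes were Ank, a pyrophosphate and ATP exporter (-0.69, adjusted p = 0.00298, called in 6 of 6), and the phosphate transporter Slc20a1 (-0.48, adjusted p = 0.0126, called in 3 of 6).

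Of 6 genes of the collagen and proteoglycan scaffold, 3 rose, 2 fell and 1 did not pass the test. Without control replicate 1 or without control replicate 3 these calls were kept, 3 higher and 2 lower. The other fits lost calls, with 0 higher and 0 lower without metformin replicate 1 or 2. There were 1 higher and 0 lower without metformin replicate 3, and 2 higher and 0 lower without control replicate 2. Col1a1, the main chain of type I collagen, went from 1339 ± 359 to 2487 ± 108 FPKM (log2 fold change 0.93, adjusted p = 0.023, called in 3 of the 6 fits). Omd, the bone proteoglycan osteomodulin, went from 19.3 ± 10.8 to 5.42 ± 0.661 FPKM (log2 fold change -1.53, adjusted p = 0.0239, called in 2 of the 6). Omd lost its call without control replicate 2 or any metformin replicate, and Dlx5, Slc20a1 and Col1a1 lost theirs without any metformin replicate.

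**Figure D5:**
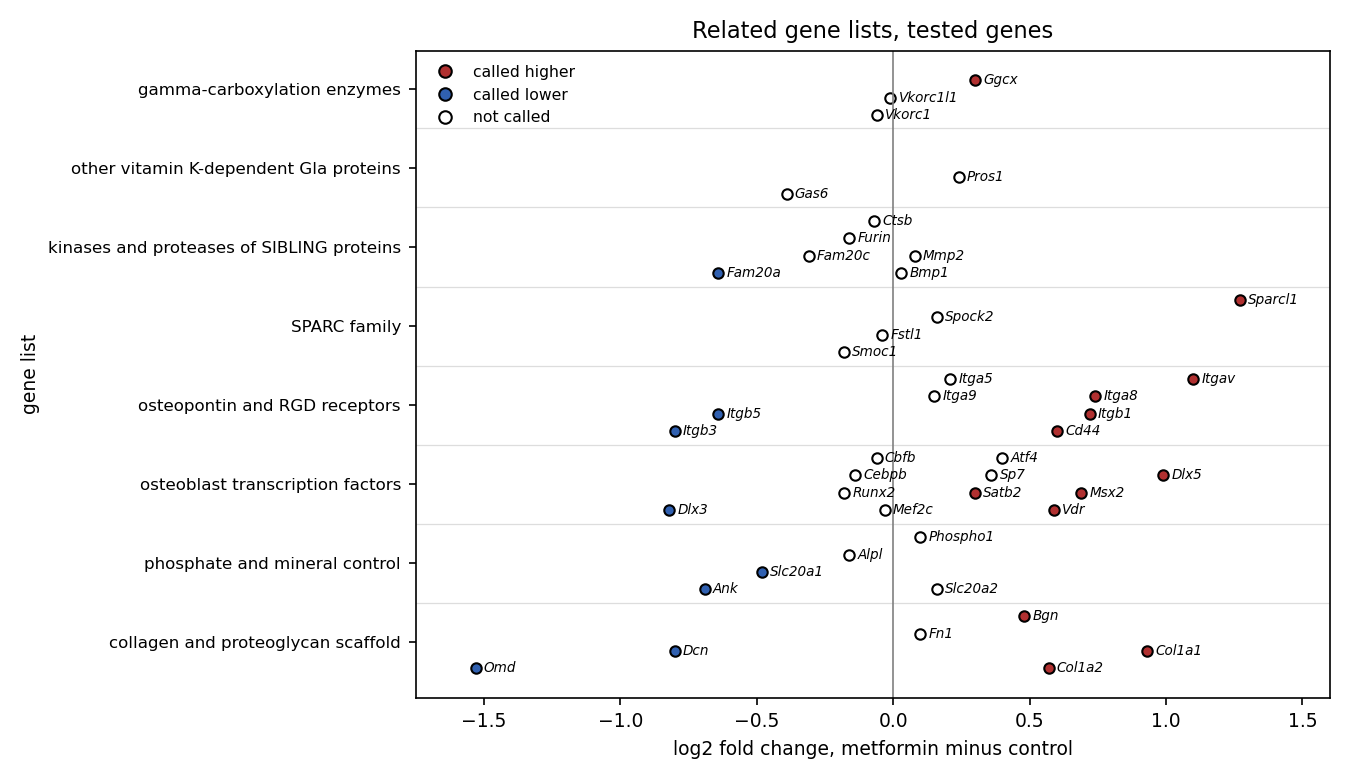
Log2 fold change of each tested gene of the 8 related lists, metformin minus control, with 1 row per list and filled points where the adjusted p-value is under 0.05. Points run from -1.53 for Omd to 1.27 for Sparcl1, and the receptors, transcription factors and scaffold genes lie on both sides of 0.

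The labelled cell type was compared with its markers. All 6 osteoblast markers were above the FPKM limit, 2 of them higher with metformin (Col1a1 and Col1a2) and 1 lower (Pth1r), and none of these 3 calls held without metformin replicate 1 or 2. Alpl, the alkaline phosphatase that marks active osteoblasts, was low, at 3.16 ± 0.596 FPKM in control samples and 2.71 ± 0.286 with metformin. Of the 6 osteocyte markers, which include Dmp1, Mepe and Phex, Sost was near 0 in both groups, and Fgf23 was listed at 0 in the control samples. The summed osteocyte list had 115 to 123 FPKM in control samples and 71.7 to 73.4 with metformin, nearly all of it from Dmp1 and Pdpn, a surface protein of early osteocytes (Pdpn log2 fold change -0.26, adjusted p = 0.0808, and -0.21, adjusted p = 0.0312 without control replicate 1). The summed endothelial list was at most 0.156 FPKM in any sample, and the summed macrophage list was 15.3 to 26 in control samples and 27.1 to 30.9 with metformin. Its tested genes went opposite ways, Lyz2 from 18 ± 5.53 to 27.2 ± 2.06 FPKM (adjusted p = 0.0771, and 0.00188 without control replicate 1) and Cd68 from 2.04 ± 0.0955 to 1.17 ± 0.119 (adjusted p = 0.0102, called in 5 of the 6 fits, not without metformin replicate 1), with Tyrobp at 0 in all 6 samples. The summed skeletal muscle list was 1.2 to 1.87 and 2.07 to 2.4 FPKM, with Myod1 and Myog at 0. The summed adipocyte list was 7.78 to 12.2 and 8.65 to 9.68 FPKM, and the chondrocyte list 30.7 to 45 and 29.7 to 32.4. Cebpa, of the adipocyte list, was called lower only without control replicate 1 (-0.40, adjusted p = 0.0156). With all samples it was at -0.10 (adjusted p = 0.813 by limma-trend). The part of these lists in the values of the members was not tested.

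The genes most like Spp1 over the 6 samples, by root mean square difference of centered log2(FPKM + 1), were Rtp4 (0.0656), Mmp13 (0.0667) and Hopx (0.0895). Mmp13, a collagenase of osteoblasts and growth plate cartilage, had 531 ± 68.9 FPKM in control samples and 199 ± 4.55 with metformin. Those most like Ibsp were Agt (0.0751), Mrgprf (0.0952) and Tcf7 (0.0965). Agt, which encodes angiotensinogen, had 387 ± 89.1 and 136 ± 3.88 FPKM. These 6 genes were picked for their likeness, so their values are a description.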

How the data were processed

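RNA sequencing of 6 samples, 3 per group by the sample labels, was read from 1 table of 54532 genes. The authors deposited FPKM, although the table names no unit: multiplied by gene length, 100% of the values above 0 are a whole number of steps of the sample's size (within 0.001 reads), and this gives the reads back. Gene length, deposited in base pairs, equals the summed exons of GENCODE M21 for all 10 members. No column of a further sample was present (0). The submitters' processing notes name Bowtie 0.12.2, mm8 and mm9, but 53499 of the 54409 identifiers found in GENCODE M21 (GRCm38) had the same coordinates, so GRCm38 is used here. The counter, its handling of strand and of reads that fit several genes, and filters are not given in the sources used here.

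The members and lists were chosen with earlier results of these data known. Limma 3.58.1 (R 4.3.3) was used with a trend in the empirical Bayes step, with no covariate. On simulated reads for the 12681 genes it called 182 of 200 changed genes, none with the wrong sign, and 12 unchanged ones. The simulation gave every gene the same spread setting and set no sample apart, unlike control replicate 1 here. Its counts therefore do not give the error rate in these data. Named genes were all members, the largest called change each way of each related list, and the 3 tested genes most like Spp1 and Ibsp; genes beside these were chosen after their values were seen. The alternatives tried were total-read scaling, a pseudocount of 0.1, no filter, at least 10 reads in every sample, voom, the replicate block, leaving out each replicate, and osteocalcin reads summed over the length of Bglap. Added after seeing the data were a GC correction of each library against the mean of all 6 samples and voom over genes with at least 30 reads in all. Transcripts were compared with BLAST+ 2.17.0 (at least 95% identity over 100 bases). Promoters are from RefSeq (GRCm38.p6). Figures were drawn with matplotlib 3.10.9. The 95% intervals come from the limma fits and measure the spread between samples, while the limit of 3 reads covers counting error only.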

Additional observations from a re-analysis of the deposited data

How the results depend on the processing

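With all 6 samples 1670 genes were higher, 1177 were lower and 4 members were called. Leaving out 1 replicate at a time gave 938 to 2969 genes called higher, 495 to 2590 called lower and 4 to 6 members called, and the fit without control replicate 1 gave the highest of each. Lower genes were 698 with the replicate block and 2433 with the GC correction. With no filter on low values 2 members were called, since Spp1 (-1.50, adjusted p = 0.198) and Mgp (-1.21, adjusted p = 0.0683) kept their log2 fold changes but lost their calls by limma-trend. Both fits used the same values for Spp1 and Mgp and differed only in the other genes included, which share the empirical Bayes trend. How this trend changed was not tested. Without control replicate 2 the log2 fold change of Bglap was 0.12, and without control replicate 1 Bglap (-0.91) and Bglap2 (-0.80) were called.

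Deviations from the group means of samples with the same number had correlations of -0.053, 0.00027 and -0.055 across genes, so the numbers were not taken as pairs. With the replicate block the same 4 members were called, with adjusted p-values of 0.0033 to 0.007 by limma-trend. Of 100 values computed for single members under alternatives, 95 kept their direction and their side of the threshold. The summed osteocalcin fit is counted under both Bglap and Bglap2. These fits share the same samples, and a gene never called counts as kept, so the count does not measure replication. Depth limits Mepe, Phex and Bglap3, which had at most 82 reads in any sample.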

Other observations

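Col10a1, a collagen of hypertrophic cartilage that was on the chondrocyte marker list, was lower with metformin. It had 3.79 ± 0.72 FPKM (SD, n = 3) in control samples and 0.264 ± 0.0778 with metformin (log2 fold change -1.91, adjusted p = 0.000206 by limma-trend), and the call held in all 6 fits that left out a replicate. The other tested genes of that list, Sox9, Col2a1 and Comp, were not called, with log2 fold changes of -0.27, -0.07 and -0.08. Without control replicate 1 Sox9 (-0.42, adjusted p = 0.0019 by limma-trend) and Col2a1 (-0.32, adjusted p = 0.0198) were called lower. Vdr, the vitamin D receptor, was higher (8.51 ± 0.18 to 13.3 ± 0.321 FPKM, log2 fold change 0.59, adjusted p = 0.00204), as was the homeobox gene Msx2 (0.594 ± 0.0933 to 1.57 ± 0.186 FPKM, log2 fold change 0.69, adjusted p = 0.00475), each in all 6 of those fits. These genes were named after their values were seen.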
